A study of Drosophila melanogaster with 2 samples.

Results

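The microRNA (miRNA) genes of *Drosophila melanogaster* were described by where tagged Her protein was recovered around them in embryos. The genes were taken from the Ensembl annotation of the dm6 genome by symbol: those that start with mir-, among them bantam (mir-ban) and let-7 (annotated as mir-let7). This gave 260 miRNA genes of 17683 genes on the main chromosome arms. Each annotated miRNA gene is a hairpin, with a median length of 92 bp and a range of 50 to 174 bp. The study consists of 2 biological replicates of 1 group, whole mixed-sex embryos aged 0 to 24 h from the stable transgenic line her-GFP, in which Her carries GFP at its C-terminus. Chromatin was broken by sonication into fragments (200 to 800 bp), and an anti-GFP antibody recovered the tagged protein with its DNA (ChIP-seq). There is no second condition, and both replicates share a control. Embryos of every age in that window and of both sexes were pooled, so a region need not have been occupied in all tissues, stages or sexes. The labels name neither the promoter that drives the fusion nor the copy of *her* left in the line.

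miRNA genes are transcribed by RNA polymerase II as long primary transcripts. The nuclear enzyme Drosha and its partner Pasha cut out the hairpin, Dicer-1 trims it to a short duplex, and one strand is loaded into Argonaute-1. Bases near the 5′ end of the loaded strand, the seed, pair with target mRNAs, which are then repressed or degraded. Many miRNA hairpins lie in the intron or exon of a host gene and are made from the host's promoter, whereas others have a transcript of their own, often in clusters. *her* (hermaphrodite) encodes a zinc finger protein that acts in the sex determination pathway.

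The mature miRNAs of genes on which the results turn are shown 5′ to 3′ as RNA, read from the RefSeq annotation and sequence of the Release 6 genome, which is dm6. Capitals mark the seed, bases 2 to 8. The first pair shares its seed and its host gene, the second pair shares a summit, bantam has a host with 6 thresholded summits, and mir-995 lies near the start of Cdk2. mir-2497 lies within *her* itself, and let-7 had no region near it in any list.
mir-92a, 3′ arm: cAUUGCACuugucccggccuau
mir-92b, 3′ arm: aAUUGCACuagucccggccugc
mir-275, 3′ arm: uCAGGUACcugaaguagcgcgcg
mir-305, 5′ arm: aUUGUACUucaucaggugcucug
mir-282, 5′ arm: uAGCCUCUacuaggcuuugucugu
mir-ban, 3′ arm: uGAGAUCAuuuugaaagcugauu
mir-375, 3′ arm: uUUGUUCGuuuggcuuaaguua
mir-995, 3′ arm: uAGCACCAcaugauucggcuu
mir-2497, 3′ arm: aCAACAUUuacaauguuugcag
mir-let7, 5′ arm: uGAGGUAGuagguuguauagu

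The values that follow come from lists of regions enriched over the control. Each replicate has a relaxed list of 30000 regions, which includes background, and so do the pooled replicates. A further list holds the 3930 pooled regions kept at the threshold on the irreproducible discovery rate (IDR), a measure of whether regions rank alike in both replicates, and these are called thresholded. Each region has a summit, the base of highest enrichment, and a signal value of the authors on a scale that is not stated. The thresholded signals ran from 90.8 to 9479, with a median of 138. Signals of the pooled list and of each replicate's list are on separate scales, so they are set side by side and not tested. The read depth behind the lists is unknown.

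Few miRNA genes lay near a thresholded summit. A thresholded summit was within 1 kb of 30 of the 260 miRNA genes (11.5%, exact Clopper-Pearson 95% interval 7.92% to 16.1%), against 25.6% of all genes and 28.7% of protein-coding genes. Long genes have more room for a summit, so the like comparison is with the 729 other genes no longer than the longest miRNA gene, of which 105 (14.4%) had one. That share lies inside the interval of the miRNA genes. tRNA genes had a summit in 12.1% of cases, snoRNA genes in 22.7%, snRNA genes in 31.2% and other non-coding RNA genes in 14.6%. Of the bases of the arms, 5.37% lay within 1 kb of a thresholded summit. The interval treats genes as independent, which they are not: mir-275 with mir-305 and mir-303 with mir-982 share a summit. Counting every thresholded summit within 1 kb, also the second ones of mir-308 and mir-375, there were 30 distinct summits at the 30 genes.

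Of the miRNA genes, 182 lay wholly inside another gene on the same strand (hosted), 48 overlapped no other gene (intergenic) and 30 overlapped a gene on the opposite strand or in part. A thresholded summit was near 23 hosted genes (12.6%, interval 8.18% to 18.4%), 5 intergenic genes (10.4%, interval 3.47% to 22.7%) and 2 of the remaining genes (6.67%, interval 0.818% to 22.1%). The intervals overlap, and no difference between the classes was resolved with so few genes. For bases inside other genes the same share was 6.18%, and for bases outside them 3.53%. Joining genes on the same strand with gaps of at most 10 kb gave 203 loci, of which 27 had a summit.

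**Figure D1:**
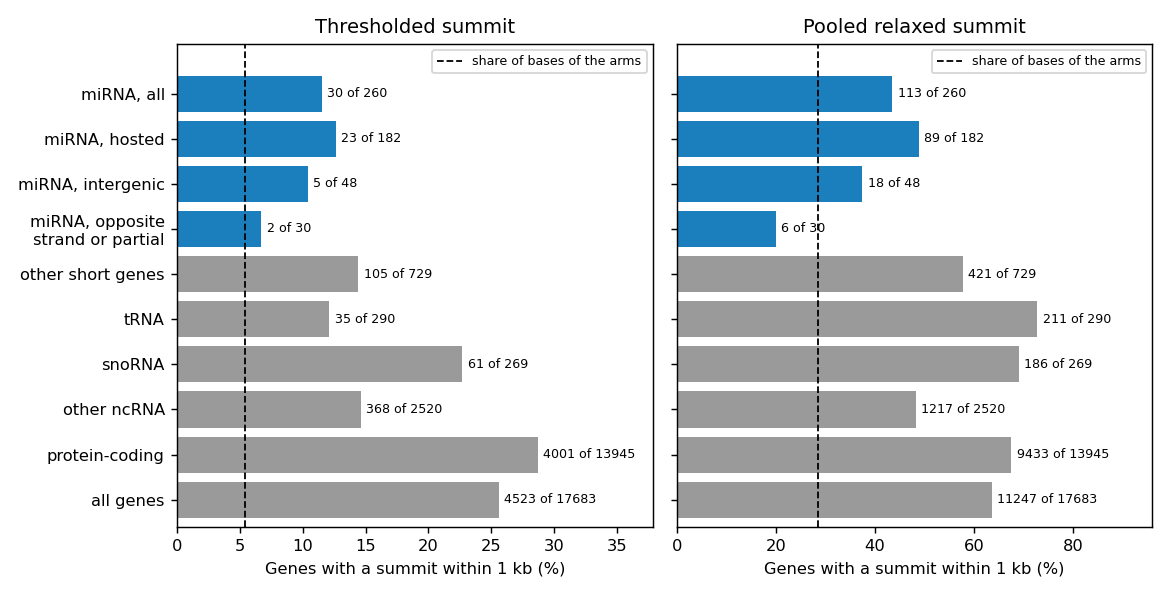
Percent of genes with a thresholded summit (left) or a pooled relaxed summit (right) within 1 kb, for miRNA genes (blue) and other gene classes (grey), with counts beside the bars and the share of bases of the arms as a dashed line. miRNA genes reach 11.5% in the thresholded list and 43.5% in the relaxed list, below the 25.6% and 63.6% of all genes.

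In the relaxed list of the pooled replicates, 113 miRNA genes (43.5%) had a summit within 1 kb, against 63.6% of all genes and 57.8% of the other short genes. tRNA genes, also short, had one in 72.8% of cases, snoRNA genes in 69.1%, snRNA genes in 59.4% and other non-coding RNA genes in 48.3%. Of the bases of the arms 28.5% lay that close to a relaxed summit, with 32.9% of those inside other genes and 18.3% of those outside. Among hosted miRNA genes the share was 48.9%, among intergenic ones 37.5%, and among those opposite or partly overlapping a gene 20%. Replicate 1 had a region near 115 miRNA genes and replicate 2 near 118, and 96 genes had one in both. No list had a region within 1 kb of 122 miRNA genes. The counts by replicate and over all lists were not made for all genes or the other short genes, so whether they are unusual cannot be said. The 83 genes with a pooled region but no thresholded one had signals of 21.4 to 90.2 with a median of 35.6, and the median of all pooled regions was 36.2. In percentage points the gap between miRNA genes and the other short genes was wider in the relaxed list than in the thresholded list. All shares are larger in the relaxed list, and the other short genes include tRNA genes, with their high relaxed share. The wider gap is therefore not read as a difference between the lists, and it was not tested.

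The strongest summit at a miRNA gene belonged to mir-4981, an intergenic gene at 2R:8015249-8015343. Its pooled signal was 498, rank 186 of 3930, with 280 in replicate 1 and 221 in replicate 2. The summit lay 846 bp upstream of the hairpin and 648 bp from the transcription start site (TSS) of CG14762. The second was mir-92a at 3R:25646506-25646600, in an intron of *jigr1*, with a pooled signal of 470 (rank 202) and 249 and 222 in replicates 1 and 2. Its summit lay 414 bp downstream of the hairpin and 232 bp from an annotated TSS of *jigr1*, which encodes a MADF-domain DNA-binding protein. The 30 summits had a median signal of 129, against 138 for the whole list, and 14 of them were among its 1965 strongest.

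mir-92b, the close relative of mir-92a, lies in a UTR of the same host at 3R:25651398-25651497. It had a separate thresholded summit 784 bp downstream of its hairpin, with a pooled signal of 182 and 77.0 and 102 in replicates 1 and 2. In flies mir-92a and mir-92b act in neural stem cells, and *jigr1* is known as one of their targets. Their seed, AUUGCAC, is carried by 6 miRNA genes. The other members, mir-310 to mir-313, lie together in a cluster on 2R and had no thresholded summit within 1 kb. The nearest lay 6452 bp from mir-313 and 6872 bp from mir-310.

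Several summits lay at the start of a non-coding RNA whose exon holds the hairpin. mir-8, of the conserved miR-200 family and known for acting on growth and Wingless signalling, had a signal of 322 at 924 bp upstream of the hairpin and 181 bp from the TSS of its host lncRNA:CR43650. The replicates gave 176 and 152. mir-282 in lncRNA:CR43626 (3L:3251022-3251118) had a pooled signal of 303, with 167 and 137 in replicates 1 and 2, and its summit was 356 bp from the host's TSS. mir-14, which limits cell death and fat storage, had a signal of 167 at 10 bp from the TSS of lncRNA:CR43651. Its replicates were further apart, at 113 and 55.2. In each of these genes both replicates had a region within 1 kb, which the IDR threshold largely ensures.

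mir-275 and mir-305 shared 1 summit, 454 bp upstream of the mir-275 hairpin (2L:7425795-7425892). mir-275 is known from mosquitoes for its role in egg production after a blood meal, and mir-305 acts in the intestinal stem cells of flies. The pooled signal was 205, with 115 in replicate 1 and 92.1 in replicate 2. mir-275 counts as hosted by lncRNA:CR43857, whereas mir-305, at 2L:7425972-7426044, lies past that gene's annotated end and counts as intergenic. The summit was 1521 bp from the nearest TSS. mir-375, known from mouse pancreatic islets for restraining insulin secretion, lies in lncRNA:CR45345 (2L:857542-857632) and had 2 thresholded summits within 1 kb. The stronger one had a signal of 144, with 77.0 and 68.3 in replicates 1 and 2, at 588 bp from the host's TSS.

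Bantam, which promotes growth and blocks cell death and is a target of the Hippo pathway, had a thresholded summit 700 bp downstream of its hairpin (3L:642208-642288). The pooled signal was 165 (rank 1431), with 80.2 and 87.5 in replicates 1 and 2. Its host, lncRNA:CR43334, spans 15466 bp and held 6 thresholded summits, or 3.88 per 10 kb. These had signals of 149, 92.7, 188, 311, 274 and 165 in their order along the transcript, and the first lay 20 bp from the host's TSS. A further summit of 300.0 lay just past the host's end, 2104 bp from the start of the hairpin. The summit counted for bantam by the 1 kb rule was therefore among the weaker ones of its transcription unit. Of the 165 hosts, 98 held no thresholded summit, 57 held 1 to 3 and 10 held 4 or more. The only hosts with more summits than that of bantam were *Tlk* (69764 bp) and *bun* (91072 bp), with 8 each. Per 10 kb, the short hosts *RpS23* (1532 bp, 6.53) and lncRNA:CR43857 (2113 bp, 4.73) lay above it, with 1 summit each. The bantam host was singled out after its values were seen.

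**Figure D2:**
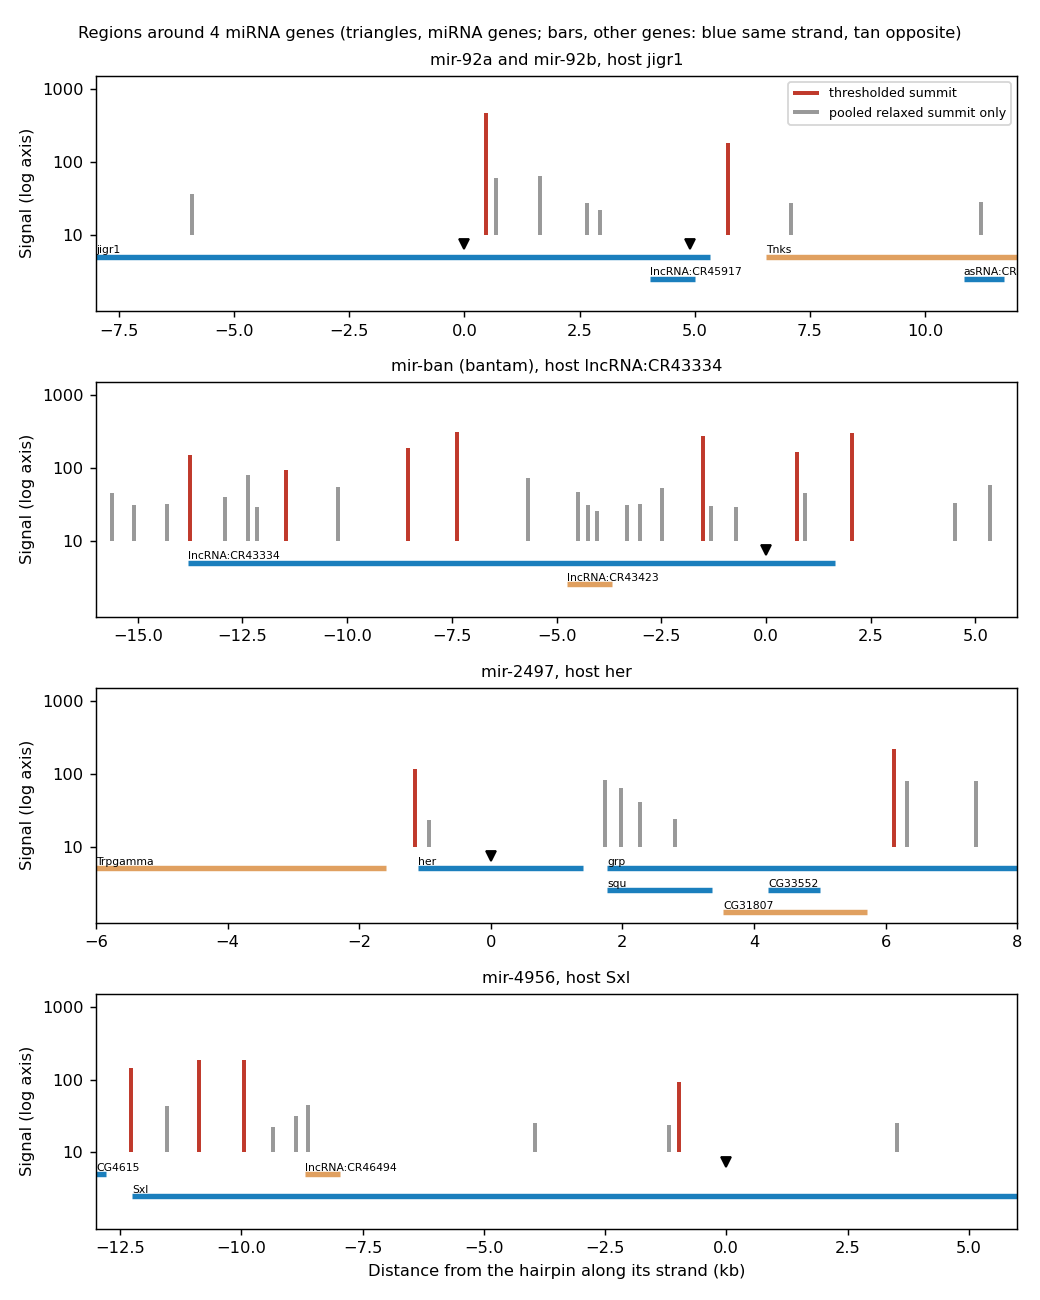
Signal of thresholded (red) and other pooled relaxed (grey) summits, on a log axis, against distance in kb from the hairpin along its strand, for mir-92a with mir-92b, mir-ban, mir-2497 and mir-4956. The bantam host holds 6 thresholded summits, and the thresholded summit at *her* lies 1100 bp from mir-2497, outside the 1 kb limit.

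Among miRNA genes in protein-coding hosts, many of the summits stood at the host's own start. mir-966 in *Pfas*, an enzyme of purine synthesis, had a signal of 193 at 55 bp from a host TSS, with 106 and 83.9 in replicates 1 and 2. mir-4949 in *ATPsynC*, subunit c of the mitochondrial ATP synthase, had 180 at 20 bp, with 108 and 76.1. mir-308, in an intron of the ribosomal protein gene *RpS23*, had 166 at 3 bp from the host's TSS, with 91.4 and 74.9, and a second summit within 1 kb. mir-2501 in *Nulp1* had 129 at 11 bp, with 45.9 and 77.7. mir-9373 in CG6231 had 120 at 10 bp, with 84.4 and 37.0. Replicate 1, on its own scale, had the higher value in 4 of these 5 genes.

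Other hosted hairpins had a summit away from any annotated start. mir-9378, in an intron of CG17124, had a signal of 197 at 162 bp upstream of its hairpin and 4225 bp from the nearest TSS, with 97.4 and 107 in replicates 1 and 2. mir-2282, in an intron of *sty* (sprouty, an inhibitor of receptor tyrosine kinase signalling), had 129.5 at 187 bp downstream, 6003 bp from the nearest TSS, with 55.6 and 69.8. mir-4962, in an intron of *Tlk* (Tousled-like kinase) at X:3777382-3777505, was the only miRNA gene with a thresholded summit inside its hairpin. That signal was 128, with 74.4 in replicate 1 and 53.0 in replicate 2.

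The intergenic mir-2496, at X:2010300-2010417, had a signal of 153 at 132 bp from the TSS of lncRNA:CR45478, with 104 and 53.0 in replicates 1 and 2. mir-980, known in flies as a suppressor of memory, overlaps CG3777 on the opposite strand. Its summit had a signal of 118.5, with 46.2 and 69.9 in the replicates, and lay 135 bp from the TSS of the neighbouring *ewg*, a transcription factor gene. At such genes the summit was nearer to the start of a neighbour than to the hairpin, and the 1 kb rule cannot assign it to either.

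The remaining 10 genes had signals of 91.7 to 117. They were mir-2491 in *fog*, mir-4978 opposite *mam*, mir-303 and mir-982 (sharing 1 summit), mir-995 in *Cdk2*, mir-9370 in *Amun*, mir-4985 in *Fatp3*, mir-4974 in CG8671, mir-4956 in *Sxl* and mir-4959 in *Inx5*. mir-995, in an intron of the cell cycle kinase gene *Cdk2* (3R:20735923-20736012), had 96.6, with 48.0 and 45.9 in replicates 1 and 2, at 43 bp from the *Cdk2* TSS. mir-4956 lies in a coding exon of *Sxl*, the master switch of female development, at X:7085737-7085853. Its signal was 91.8, with 59.8 and 26.7 in replicates 1 and 2, at 916 bp upstream of the hairpin and 6114 bp from the nearest *Sxl* TSS. The strongest summit at an *Sxl* TSS had 185 and lay away from the hairpin.

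**Figure D3:**
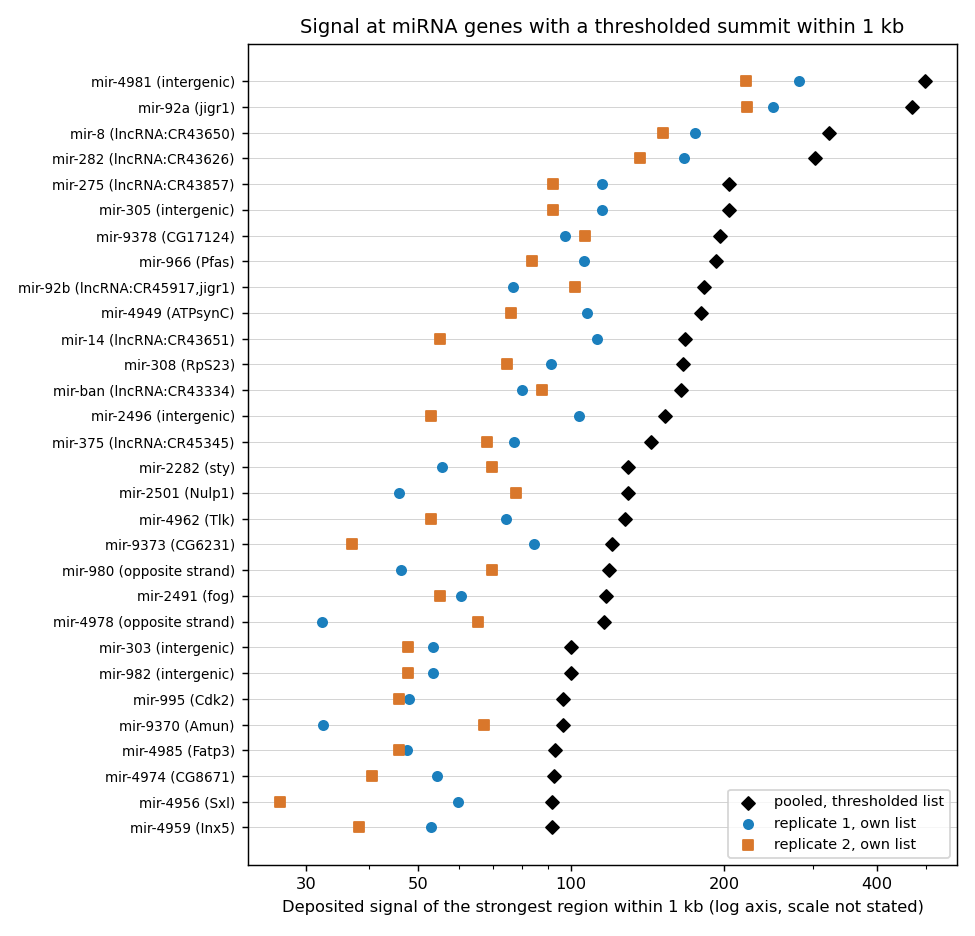
Deposited signal (log axis) of the strongest region within 1 kb of each of the 30 miRNA genes with a thresholded summit, pooled (diamonds), in replicate 1 (circles) and in replicate 2 (squares), with the host in brackets. Replicate 1, on its own scale, has the higher value in 22 of the 30 genes, which was not counted for all regions. mir-275 with mir-305 and mir-303 with mir-982 have equal values because they share a summit.

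Both replicates had a relaxed region within 1 kb of all 30 genes, which the IDR threshold largely ensures. The strongest one had its summit within 200 bp of the thresholded summit in 29 genes in replicate 1, with mir-4978 as the exception, and in 30 in replicate 2. The ratio of replicate 1 to replicate 2 signal had a median of 1.14 and ran from 0.482 to 2.28. The replicates' lists are on separate scales, and the ratio was not taken over all thresholded regions. It is therefore not read as a trait of miRNA genes. Taking the 3930 strongest regions of 1 replicate in place of the thresholded list called 24 of the 30 genes with replicate 1, 26 with replicate 2 and 20 with each. With replicate 1, mir-4978, mir-4985, mir-2501, mir-995, mir-980 and mir-9370 were not called. With replicate 2, mir-4974, mir-9373, mir-4956 and mir-4959 were not called, so the *Sxl* hairpin depends on replicate 1 at that depth of list.

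The distance from the hairpin to a start site went with the calls. Of the 30 summits, 16 (53.3%) lay within 500 bp of the TSS of another gene, against 63.3% of all thresholded summits. The strongest summit was upstream of the hairpin in 22 of the 30 genes, downstream in 7 and inside in 1. That split was not made for other genes, so whether it is unusual cannot be said. Of the 56 hosted hairpins with a host TSS within 1 kb, 14 (25%) had a thresholded summit. The share was 7 of 68 (10.3%) with the host TSS at 1 to 5 kb and 2 of 58 (3.45%) beyond 5 kb. In 12 of the 23 hosted genes the strongest summit lay within 500 bp of a host TSS. The median distance from hairpin to host TSS was 826 bp in the hosted genes with a summit and 2847 bp in those without. Since a summit at a host's start is counted for any hairpin within 1 kb of it, these shares describe the position of the hairpins as much as the recovery of the protein.

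Where in the host the mature arms lay was also counted, an exon of any transcript taking precedence over an intron. A thresholded summit was near 11 of 104 genes with arms in introns (10.6%), 2 of 13 in coding exons (15.4%), 4 of 19 in UTRs (21.1%) and 6 of 46 in exons of non-coding RNAs (13%). Mirtrons are hairpins that fill a whole short intron and are released by splicing in place of Drosha. In 34 genes the ends of the hairpin record lay within 5 bases of both ends of an intron, and in mir-2497 the ends of the mature arms did. Of these 35, 1 (2.86%) had a thresholded summit, mir-2501 in *Nulp1*. For the 34 the interval was 0.0744% to 15.3%, which holds the 11.5% of all miRNA genes. In the pooled relaxed list 15 of the 35 had a region (41.2% of the 34), against 43.5% of all miRNA genes. On the X chromosome 9 of 58 miRNA genes (15.5%) had a thresholded summit, against 25.1% of all X genes and 7 of the 68 other short genes on X (10.3%). The interval for X was 7.35% to 27.4%, and the other arms ran from 0% (2 genes on arm 4) to 12.9% (3L). In the pooled relaxed list X had the lowest share of any arm, 16 of 58 (27.6%).

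The hosts themselves were counted by their starts, which is where an intronic miRNA would share regulation with its host. Of the 165 hosts, 74 (44.8%) had a start with a thresholded summit no more than 1 kb away, against 20.9% of all genes other than miRNA genes. For protein-coding hosts the count was 62 of 128 (48.4%), against 23.3% of all protein-coding genes, and for non-coding hosts it was 12 of 37 (32.4%). Many hosts are long genes with more than 1 start. Protein-coding hosts had a median length of 14094.5 bp and a median of 2 TSSs, against 2147 bp and 1 for other protein-coding genes. Among protein-coding genes with 1 TSS, 28.6% of 56 hosts and 17.5% of the others had a summit. With 2 TSSs the shares were 60% of 30 hosts and 33.4% of the others, and with 3 or more they were 66.7% of 42 hosts and 51.8% of the others. Hosts remained longer than the other genes within each of these groups, with medians of 4758.5, 16103.5 and 20855.5 bp, against 1752, 3556.5 and 10270 bp, and the part of length in the difference was not tested.

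The 74 hosts carry 82 miRNA genes, and 20 of these (24.4%) had a thresholded summit within 1 kb of the hairpin, at the host's start or elsewhere. Of the 100 miRNA genes in the other hosts, 3 (3%) had one. Part of this contrast is built in, since 1 summit can lie within 1 kb of both the start and the hairpin. The strongest host start was that of *wts*, the kinase Warts of the Hippo pathway, with a signal of 2056 (rank 33), whose intron holds mir-1013. lncRNA:CR31044, the host of mir-279 and mir-996, which act together in olfactory neuron development, had 777 at 96 bp from its TSS. The start of *sty* had 776 and that of *cv-c*, a RhoGAP gene with mir-2281, had 734. *spi*, an EGFR ligand gene that carries mir-2a-1, mir-2a-2 and mir-2b-2, had 323 at its start. None of the hairpins of these named hosts except mir-2282 in *sty* had a thresholded summit within 1 kb, and that of mir-2282 was the separate one described above. The named hosts skip some starts above that of *spi*. *jigr1* (470) and *Tlk* (339) lay there, and their hairpins had a thresholded summit within 1 kb. *PAPLA1* (378), *Atet* (369), *Nrx-1* (331) and *for* (330) lay there too, and their hairpins had none.

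**Figure D4:**
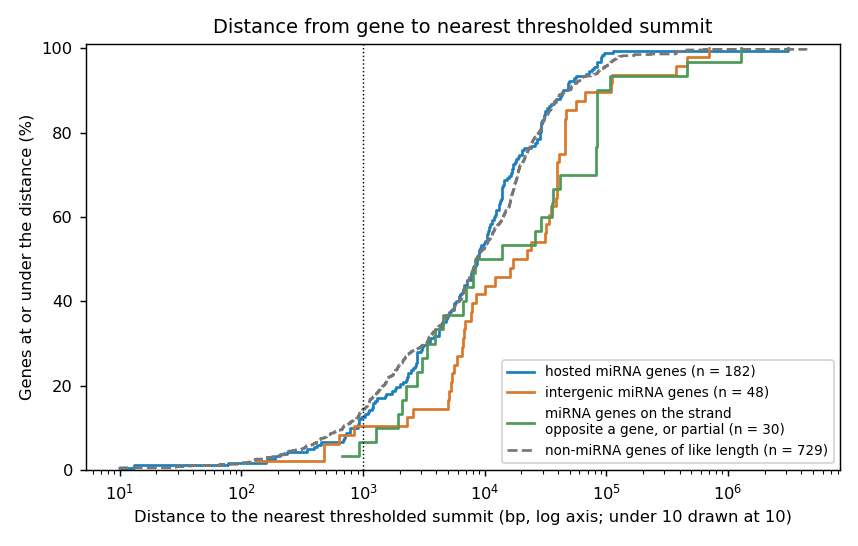
Cumulative percent of genes at or under a distance in bp (log axis) from the nearest thresholded summit, for hosted, intergenic and other miRNA genes (solid) and for non-miRNA genes no longer than the longest miRNA gene (dashed); the dotted line marks 1 kb. The hosted curve runs close to that of the short genes, and the intergenic curve lies to the right of both at 2 kb, with 5 of 48 intergenic genes against 36 of 182 hosted ones and 25.1% of the short genes.

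The median distance to the nearest thresholded summit was 9038 bp for miRNA genes and 8597 bp for the other short genes. Within 5000 bp lay 86 miRNA genes (33.1%), against 36.8% of the short genes, and within 50000 bp lay 230 (88.5%), against 90.1%. By class the median was 8724 bp for hosted, 19683.5 bp for intergenic and 11151 bp for the remaining miRNA genes. The farthest was mir-2279, at 3111578 bp. Just inside the 1 kb limit were mir-4959 (970 bp), mir-14 (928 bp) and mir-8 (924 bp), and just outside were mir-2493 (1028 bp), mir-2497 (1100 bp) and mir-279 (1119 bp).

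mir-2497 lies within *her* at 2L:16678240-16678335. Its mature arms span 2L:16678250-16678317, exactly an intron of *her*, and the ends of the hairpin record reach into the flanking coding exons. The thresholded summit beyond the limit was that of the *her* start, with a signal of 116 (rank 2686). Within 1 kb of the hairpin the strongest pooled region had 22.8, with 13.5 in replicate 1 and 13.0 in replicate 2, at rank 27440 of the 30000 regions of the pooled list. The line carries a *her* transgene, and whether its insert adds reads at this place is not stated by the labels. mir-279 had a relaxed region of 67.6, with 29.2 and 59.6 in replicates 1 and 2, and mir-2493 one of 55.4, with 31.6 and 28.1.

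The hairpins without a thresholded summit that had the strongest relaxed region were close to the threshold. mir-4912 in *Fnta* had a pooled signal of 90.2, with 40.2 in replicate 1 and 46.2 in replicate 2. mir-4977 in *Eaf* had 89.0, with 70.4 and 26, and mir-11182 had 88.6, with 33.9 and 59.2. mir-4955 in *trol* had 87.1, with 58.7 and 34.7, and mir-4957 had 85.9, with 30.8 and 79.6. For all but mir-4912 the pooled region lay close to an annotated TSS. It was that of the host for mir-4977 (*Eaf*, 43 bp) and mir-4955 (*trol*, 28 bp). For mir-11182 and mir-4957, which count as not hosted, it was that of CG5726 (135 bp) and *Top1* (149 bp).

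Counted by gene, a smaller share of clustered miRNA genes than of single ones was called, but not when counted by locus. Loci of at least 2 genes numbered 22 with 79 genes, of which 6 (7.59%) had a thresholded summit, against 24 of the 181 single genes (13.3%). The intervals of these shares overlap, at 2.84% to 15.8% and 8.68% to 19.1%, and they treat members of a cluster as independent, which they are not. The 6 came from 3 loci, those of mir-275 with mir-305, mir-92a with mir-92b, and mir-303 with mir-982. By locus, 3 of the 22 thus had a summit, against 24 of the 181 single-gene loci, which are nearly equal shares. In 8 of the 22 loci neither replicate had a relaxed region within 1 kb of any member. These loci include the largest cluster, 12 genes on X from mir-972 to mir-979, and the cluster of 8 genes from mir-309 to mir-6-3, which clears maternal mRNAs in the early embryo and is known to depend on the early activator Zelda. They also include mir-959 to mir-964. These clusters were named after their values were seen. Of the 181 single genes, replicate 1 had a relaxed region near 89, replicate 2 near 89 and both near 72. Many single genes thus had none either, and the 8 loci are not read as a trait of clusters.

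let-7, which times the larval to adult transition, lies at 2L:18472034-18472111 in lncRNA:let7C together with mir-100 and mir-125. None of the 3 had a region within 1 kb in any list, and the nearest thresholded summit was 91041 bp from let-7. mir-1, the muscle miRNA, had a relaxed region with a signal of 40.2, with 18.7 and 25.5 in replicates 1 and 2, and its nearest thresholded summit was 72380 bp away. The bithorax complex miRNAs mir-iab-4 and mir-iab-8, which repress Hox genes, are made from opposite strands of the same interval (3R:16856275-16856342) and so share their values. They had a relaxed region of 56.2, with 22.3 and 38.2 in the replicates, and the nearest thresholded summit was 13120 bp away. Expression of these genes was not measured here, and a relation of expression to these values was not tested. In whole embryos a region used in few cells cannot be told apart from one used weakly in many.

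Grouping by seed put 14 genes under AUCACAG, the family of mir-2, mir-6, mir-11, mir-13 and mir-308, of which 1, mir-308, had a thresholded summit. The seed AGCACCA joined mir-995, which had a summit, with mir-285 and mir-998, which had none.

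Short sequences were looked for, on either strand, no more than 50 bp from each of the 30 summits and from each of the 3930. The DNA replication-related element TATCGATA was at 1 (3.33%), against 3.64% of all, the GAGA factor sequence GAGAGAG at 1 (3.33%), against 3.16%, and the Zelda sequence CAGGTAG at 1 (3.33%), against 0.585%. The E-box CAGCTG was at 2 (6.67%), against 6.51%, and the E-box CACGTG at 2 (6.67%), against 1.48%. CGATA, which TATCGATA contains, was at 6 (20%), against 21.1%. The shares above those of the whole list, for CAGGTAG and CACGTG, rest on 1 and 2 summits.

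The protein machinery of the pathway was counted from a list of 17 genes, all found in the annotation. A thresholded summit was within 1 kb of 10 of them, a relaxed pooled one of 16 and a relaxed one in both replicates of 17. Over all protein-coding genes the share was 28.7% for a thresholded summit and 67.6% for a relaxed pooled one. No such share was counted for both replicates. The listed genes are longer than hairpins, and all but *r2d2* (1952 bp) exceed 2147 bp, the median of protein-coding genes that host no miRNA. The part of length was not tested. Neither the nuclear cleavage enzyme *drosha* nor its partner *pasha* had a thresholded summit, with the nearest at 2325 and 1820 bp. Nor did *Dcr-1* (9438 bp), its partner *loqs* (1727 bp) or *Dcr-2*, which makes small interfering RNAs (4585 bp). All of these but *Dcr-1* had a relaxed pooled region. It had a signal of 74.9 at 27 bp from its own TSS for *drosha* and 46.3 at 144 bp for *pasha*. For *Dcr-2* it had 72.3 at 2 bp and for *loqs* 33.4 at 723 bp. Of the effectors, *AGO1* had a signal of 231, with 118 and 111 in replicates 1 and 2, at 104 bp from its own TSS and 66 bp from that shared by CG33155 and *mRpL53*. *gw*, the Argonaute partner GW182, had 143, with 59.9 and 87.1, at 168 bp. *AGO2* had 140, with 65.7 and 75.7, at 246 bp. *r2d2*, the partner of Dicer-2, had 380, with 211 and 166, but the summit lay 73 bp from the TSS of *Herp* and 227 bp from its own.

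The 3 listed genes of mRNA deadenylation, through which miRNAs destabilise targets, had a thresholded summit each. *Pop2* had a signal of 206 at 67 bp from its TSS and *twin* had 190.0 at 83 bp. The summit of *Not1*, with 280, lay 565 bp off its 3′ end. *me31B*, a decapping helicase, had none (4912 bp), nor did *Nbr*, the exonuclease that trims miRNA 3′ ends (2000 bp). Their strongest relaxed pooled regions had 42.1 and 59.6, at 149 and 9 bp from their own TSSs. *Tailor*, a uridyltransferase acting on mirtron hairpins, had 287, at 77 bp from the TSS of *alphaTub84B* and 593 bp from its own. The summit of *Hen1*, the methyltransferase of small RNA 3′ ends, had 190.4 and lay 168 bp from the TSS of *bsd* and 4728 bp from its own. *Ranbp21*, the hairpin exporter, had 100.5 at 113 bp from its TSS.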

How the data were processed

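ChIP-seq regions of 2 biological replicates (1 group) were analysed. Per the file headers and labels, the authors deposited lists of regions on dm6 made against a control, with a signal value, a −log10 q-value and a summit offset (another number, counted from the region's start) per region. The −log10 q of the deposited thresholded list was 4.13 throughout, so the authors' signal was used to rank. No source used here gives the aligner, peak caller or read depth, so the precision that depth gives is unknown. dm3 lists were not used here. Genes came from Ensembl release 115 and sequence from the RefSeq Release 6 assembly. Annotated records of single mature arms (481) and 2 miRNA genes off the main arms were left out. Distances run from summit to gene, 0 inside. No test was possible with 1 group; shares have exact 95% intervals over genes, which cover counting only. The members and lists were chosen with earlier results of these data known. The text names every miRNA gene with a thresholded summit (the 20 strongest in full), bantam, let-7, mir-1, the bithorax miRNAs, the 5 strongest relaxed regions, the 3 genes nearest outside 1 kb and the 17 pathway genes. The counting was tested on simulated data. Alternatives changed the distance, list length, replicate, host strand and locus gap. Python 3.11.15, pandas 2.3.3, numpy 2.4.6, scipy 1.17.1 and matplotlib 3.10.9 were used.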

Additional observations from a re-analysis of the deposited data

How the results depend on the processing

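Of 52 alternatives to the main counts, 37 stayed within 1.5 times. At 500 bp the counts were 15 miRNA genes, 12 hosted genes, 3 intergenic genes and 14 loci in the thresholded list, and 75 genes in the relaxed list. At 2 kb the hosted count was 36. With the 1965 strongest thresholded regions they were 15 miRNA genes, 12 hosted, 3 intergenic, 13 loci and 46 hosts. With the 7860 strongest pooled regions they were 48 miRNA genes, 37 hosted and 44 loci. Counting single mature arms as genes, chosen after seeing the data, left 0 intergenic genes, since each hairpin then overlaps a record. Each of the other changes follows from a shorter or longer distance or list. With 1 replicate left out, the counts ran from 27 to 32 miRNA genes, 22 to 23 hosted genes, 24 to 29 loci, 67 to 73 hosts and 115 to 118 genes with a relaxed region, and stayed at 5 intergenic and 10 pathway genes. Signals of named genes in each replicate's list are on that list's own scale. Depth is unknown, so a gene without a region was not called rather than free of the protein. No paired analysis was possible because there is 1 group.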
